A study of Sus scrofa with 9 samples.

Results

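The cell cycle and proliferation genes described here are 45 genes chosen by symbol for their known roles in the division cycle, from the G1 cyclins to the proteins that separate the chromosomes. Of the 45, 37 had a row among the 34580 rows of the expression table and 33 were above 0 in at least 1 library. These 33 genes were followed through deciduous molar (Dm3) germs of miniature pigs.

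The study sequenced rRNA-depleted RNA from whole mandibular molar germs to profile coding and noncoding transcripts during tooth formation. Germs were taken from untreated fetuses at embryonic day 40 (E40, cap stage), embryonic day 50 (E50, early bell stage) and embryonic day 60 (E60, late bell stage). Each stage had 3 libraries. The labels give no sex, litter or animal for a library, and nothing in them says that the 3 libraries of a stage came from separate animals. The paper's methods mention biological replicates for each condition, without stating whether these were separate animals. The p-values below therefore measure the spread between libraries, which may be technical. Values are FPKM, that is the fragments of a gene divided by its exon length and by the fragments of the library, a scale on which levels of different genes can be set side by side.

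The libraries fell into sets that crossed the stages, and every comparison below depends on this. The whole fragments behind the values came to between 14362235 and 16674750 in the deep set, made of the 3 E50 libraries and E60 library 1, and to between 938527 and 1760356 in the shallow set, made of the 3 E40 libraries and E60 libraries 2 and 3. Over the rows that reached 1 FPKM in 2 libraries or more, Pearson's r of log2 values was 0.959 to 0.983 within the deep set, 0.743 to 0.838 within the shallow set and 0.301 to 0.609 between the sets. A single uncharacterised row, LOC102158401, held 22.3% to 40.6% of the fragments of each shallow library and at most 0.576% of those of a deep library. All 3 E60 libraries carried the late bell markers, among them the enamel matrix gene AMBN (10410, 2181 and 5371 FPKM, against at most 6.48 in any E40 or E50 library) and the dentin matrix gene DSPP (393, 174 and 194 FPKM, against at most 2.62). For these reasons E60 was compared with E50 inside the deep set and with E40 inside the shallow set.

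A dividing cell first commits to the cycle in G1, when D and E cyclins release the E2F transcription factors. Origins of replication are then licensed by CDC6 and CDT1, which load the MCM helicase, and geminin (GMNN) blocks a further round of loading until division is over. CDK1 with the A and B cyclins and the Aurora kinases drives mitosis, and the anaphase-promoting complex with its activator CDC20 ends it. In the tooth germ, enamel epithelium and dental papilla grow by division in the cap and early bell stages, and the cells facing each other across the basement membrane leave the cycle as they become ameloblasts and odontoblasts. Because RNA came from whole germs, fewer dividing cells and less of a transcript in each dividing cell cannot be told apart in any of the values below.

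Of the genes without a value, TOP2A, CCND1, MCM5, MCM6, MCM7, TPX2, BIRC5 and CDKN2C had no row under these symbols. CDKN1B, PLK1, RRM2 and TYMS were listed at 0 in all 9 libraries. Such a 0 can be a failed estimate, since the epithelial cadherin gene CDH1 was also listed at 0 throughout, and it was not read as absence. MKI67 was therefore the only proliferation marker measured of MKI67 and TOP2A, and CDKN1A the only CDK inhibitor measured of 3. All 33 genes above 0 passed the filter on low values in every comparison.

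At E50 the highest of these genes were PCNA, the sliding clamp of DNA polymerases, at 173 ± 29.9 FPKM (SD, n = 3), RRM1, a subunit of ribonucleotide reductase, at 129, 139 and 145 FPKM in libraries 1, 2 and 3, and CDK1, the mitotic kinase, at 96.9 ± 19.4 FPKM. CENPF, a kinetochore protein, followed at 84.7 ± 14.5 FPKM and CCNB1, the partner of CDK1, at 83.6 ± 12.1 FPKM. These neighbours in the order overlapped within their SDs, apart from RRM1 and CDK1, whose libraries did not overlap. In the shallow E40 libraries the order began instead with RRM1 (64.4 ± 7.84 FPKM), the cytokinesis motor KIF23 (54.1 ± 5.78 FPKM), CCNA2 (40.5 ± 5.17 FPKM) and MCM3 (34.9 ± 7.77 FPKM), and PCNA stood at 17.5 ± 4.59 FPKM. The coefficient of variation between the 3 libraries had a median over the 33 genes of 13.0% at E50 and 22.7% at E40.

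Summed over the 33 genes, the level was 1475, 1665 and 1683 FPKM in E50 libraries 1 to 3 and 1111 FPKM in E60 library 1. The E60 library lay below all E50 libraries, at 69.1% of their mean. In the shallow set the sum was 533, 608 and 670 FPKM at E40, 303 FPKM in E60 library 2 and 473 FPKM in E60 library 3. Both E60 libraries lay below all E40 libraries, at 50.1% and 78.4% of their mean, but they also differed from each other by more than the E40 libraries did. The summed level of 4 constitutive genes (ACTB, GAPDH, PPIA and EEF1A1), measured the same way, was 89.0% of the E50 mean in E60 library 1. It was 50.5% and 113.6% of the E40 mean in E60 libraries 2 and 3. EEF1A1 held most of this sum (13679 of 17537 FPKM in E60 library 1). In that library ACTB and GAPDH lay inside their E50 range, and PPIA and EEF1A1 below it.

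**Figure D1:**
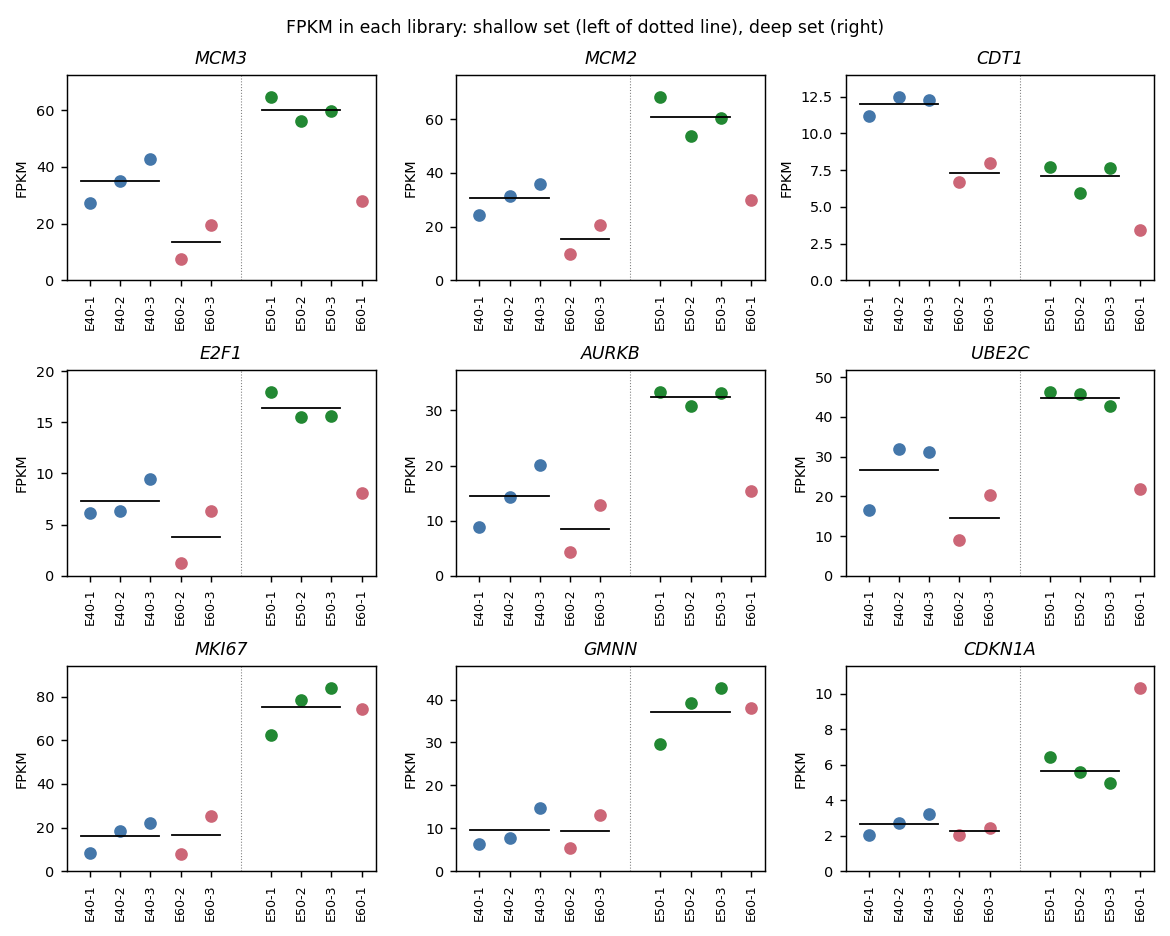
FPKM (vertical axes, from 0) of 9 cell cycle genes in each library, with the shallow set left and the deep set right of the dotted line; each point is 1 library and black lines are means of E40, of E60 libraries 2 and 3, and of E50. In the deep set E60 library 1 sits below the E50 points for MCM3, MCM2, CDT1, E2F1, AURKB and UBE2C, inside them for MKI67 and GMNN, and above them for CDKN1A.

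Within the deep set, E60 against E50 asked how the cycle genes stood between the early and the late bell stage in libraries of comparable depth. Of the 33 genes, 6 passed both limits (limma, Benjamini-Hochberg adjusted p under 0.05 and a log2 difference of at least 1), all of them lower at E60: MCM3, AURKB, UBE2C, CDT1, MCM2 and E2F1. This was 18.2% of the genes, where 5.74% of all 14499 rows tested passed in either direction and 2.88% passed on the lower side. In addition, 31 of the 33 had a log2 difference below 0, and their median was -0.67 on the scale of log2(FPKM + 0.1), beside a median of -0.06 and 55.8% below 0 over all rows. E60 library 1 lay below every E50 library in 29 of the 33 genes (87.9%), against 36.9% of all rows tested, and above every E50 library in CDKN1A alone. As E60 had only 1 library here, it was assumed to vary as the E50 libraries did.

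Licensing genes stood lowest, with 3 of 6 past both limits, against 5.74% of all rows tested, and a median log2 difference of -0.97. MCM3, a subunit of the replicative helicase, was at 64.8, 56.0 and 59.6 FPKM at E50 and 28.0 FPKM in E60 library 1. The E60 value lay below all E50 libraries, 2.14-fold lower on the fitted scale (log2 -1.10, SE 0.27, limma adjusted p = 0.00251). MCM2, another helicase subunit, gave 68.4, 53.7 and 60.6 FPKM against 30.0 FPKM (log2 -1.01, SE 0.27, limma adjusted p = 0.00671), again without overlap. The helicase loader CDT1 was the lowest in level of these, at 7.72, 5.96 and 7.63 FPKM at E50 and 3.40 FPKM in E60 library 1 (log2 -1.03, SE 0.26, limma adjusted p = 0.00333). MCM4 missed the limit on size with a log2 difference of -0.93 (limma adjusted p = 0.0132), and CDC6, the other loading factor, missed both with -0.72 (limma adjusted p = 0.0517). GMNN, the inhibitor of CDT1, went with none of these: its E50 libraries held 29.5, 39.3 and 42.8 FPKM and E60 library 1 held 38.0 FPKM, inside their range, with a log2 difference of 0.05 (SE 0.26, limma adjusted p = 0.951).

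Among the G1/S genes the median log2 difference was -0.61, and E60 library 1 lay below every E50 library in all 4 measured, against 36.9% of all rows tested. E2F1, a transcription factor that switches on replication genes, was at 17.9, 15.5 and 15.6 FPKM at E50 and at 8.07 FPKM in E60 library 1. It fell by 1.01 on the log2 scale (SE 0.25, limma adjusted p = 0.00295), just past the limit on size. CCNE1, the cyclin that starts S phase with CDK2, gave 6.53, 6.81 and 7.64 FPKM against 3.77 FPKM, a log2 difference of -0.87 that passed the limit on p (limma adjusted p = 0.0162) but not that on size. Its paralog CCNE2 differed by -0.36 and the G1 cyclin CCND2 (65.6, 59.5 and 50.3 FPKM at E50, 46.7 FPKM in E60 library 1) by -0.32, with limma adjusted p of 0.46 and 0.569.

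In the genes of DNA synthesis and in MKI67 the bell stages could not be told apart. RRM1 was at 131 FPKM in E60 library 1, inside the range of its E50 libraries, with a log2 difference of -0.07 (SE 0.28, limma adjusted p = 0.932). PCNA had 141, 176 and 201 FPKM at E50 and 137 FPKM in E60 library 1, just below the lowest E50 library (log2 -0.32, limma adjusted p = 0.605). MKI67, which encodes the Ki-67 protein found in cycling nuclei, had 62.3, 78.6 and 84.1 FPKM at E50 and 74.3 FPKM in E60 library 1. The E60 value again lay among the E50 values, and the log2 difference was -0.0029 (SE 0.28, limma adjusted p = 0.998). A missed limit does not show that these levels were equal.

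The mitotic genes all had lower values in E60 library 1 than in any E50 library, against 36.9% of all rows tested. They comprised 7 G2/M regulators, 7 genes of the checkpoint, centromere and anaphase-promoting complex, and 5 spindle and cytokinesis genes. Their median log2 differences were -0.67, -0.71 and -0.47. Passing both limits were AURKB, the kinase of the chromosomal passenger complex, with 33.3, 30.7 and 33.2 FPKM at E50 and 15.4 FPKM at E60 (log2 -1.07, SE 0.25, limma adjusted p = 0.0023), and UBE2C, the ubiquitin-conjugating enzyme of the anaphase-promoting complex, with 46.2, 45.7 and 42.6 FPKM against 21.8 FPKM (log2 -1.04, SE 0.26, limma adjusted p = 0.0038). In both, the E50 libraries lay close together and the E60 library far below them.

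In the deep set the mitotic genes had between 174 and 17153 fragments in a library. CDK1 was at 75.8, 101 and 114 FPKM at E50 and 67.4 FPKM in E60 library 1, a log2 difference of -0.50 (limma adjusted p = 0.312). CCNA2, the cyclin of S phase and G2, had 57.2, 69.5 and 72.7 FPKM against 41.5 FPKM (log2 -0.67, limma adjusted p = 0.117), and CENPF 80.8, 101 and 72.6 FPKM against 51.3 FPKM (log2 -0.71, limma adjusted p = 0.101). In these 3 genes the libraries did not overlap, yet the difference missed the limit on p. The checkpoint kinase BUB1B (42.6, 56.5 and 46.4 FPKM against 30.3 FPKM), the spindle protein NUSAP1 (69.0, 82.2 and 90.4 FPKM against 52.9 FPKM) and the bipolar spindle motor KIF11 (28.3, 42.3 and 36.9 FPKM against 25.5 FPKM) showed the same order of libraries, with log2 differences of -0.67, -0.60 and -0.47 that missed the limit on p. Named after their values were seen, CDC20 (-0.85), AURKA (-0.85), the cytokinesis motor KIF20A (-0.82) and CCNB2 (-0.79) passed the limit on p alone.

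CDKN1A, which encodes the CDK inhibitor p21, stood the other way. It had 6.43, 5.57 and 4.97 FPKM in the E50 libraries and 10.3 FPKM in E60 library 1, from 198, 195, 150 and 350 fragments. The E60 library lay above every E50 library, and the log2 difference of 0.87 (SE 0.25, limma adjusted p = 0.0163), a 1.82-fold higher value, passed the limit on p but not that on size. In the shallow set the same gene rested on 4, 6 and 9 fragments at E40 and 6 and 9 in the E60 libraries, and its libraries overlapped there (log2 -0.21, limma adjusted p = 0.83).

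The calls in the deep set rested on small margins. Without E50 library 3 only MCM3 of the 6 passed both limits (4.47% of all rows passed) and without E50 library 1 MCM3, AURKB and UBE2C (4.98% of all rows). None passed in a fit together with the shallow libraries (0.107% of all rows) or when low rows were kept (0% of all rows). With median-ratio scaling only MCM3 passed, 3.03% of the 33 genes, where 780 of all 14499 rows did, against 832 without this scaling. With this scaling, and also without E50 library 3, a smaller share of the genes than of all rows passed both limits. The log2 differences of the 6 genes ranged from -0.76 to -1.15 over all settings tried, so their direction did not turn. Markers of other cells also differed between E60 library 1 and the E50 libraries: the 9 dental epithelium markers with a row (CDH1 at 0) summed to 21546 FPKM against 2406 to 3367 FPKM, of which the enamel genes AMBN, AMEL and ENAM held 18292 FPKM against 6.85 to 10.3 FPKM. The 7 mesenchyme and odontoblast markers summed to 4591 FPKM against 4438 to 4978 FPKM, but their members lay on both sides. VIM (1927 FPKM against 2397 to 2753 FPKM), COL3A1 (1539 FPKM against 1703 to 2103 FPKM) and PAX9 (10.6 FPKM against 19.8 to 24.9 FPKM) were below every E50 library, and COL1A1 (620 FPKM against 97.6 to 175 FPKM), DSPP and DMP1 (55.5 FPKM against at most 1.32 FPKM) above. In the other lists, 9 erythroid markers were at 674 FPKM against 729 to 1026 FPKM, 3 endothelial markers were at 61.1 FPKM against 50.8 to 55.0 FPKM, 3 bone markers at 29.4 FPKM against 14.7 to 17.1 FPKM, 4 leukocyte markers at 7.57 FPKM against 4.55 to 7.22 FPKM and 5 muscle markers (CKM and TNNT3 at 0) at 3.36 FPKM against 4.70 to 5.96 FPKM. Of the bone markers, IBSP alone was above every E50 library (24.0 FPKM against 6.44 to 8.42 FPKM). RUNX2 (3.55 FPKM against 5.06 to 5.67 FPKM) and BGLAP (1.94 FPKM against 2.57 to 3.06 FPKM) were below. The part of all these cell markers in the differences of the cycle genes was not tested.

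**Figure D2:**
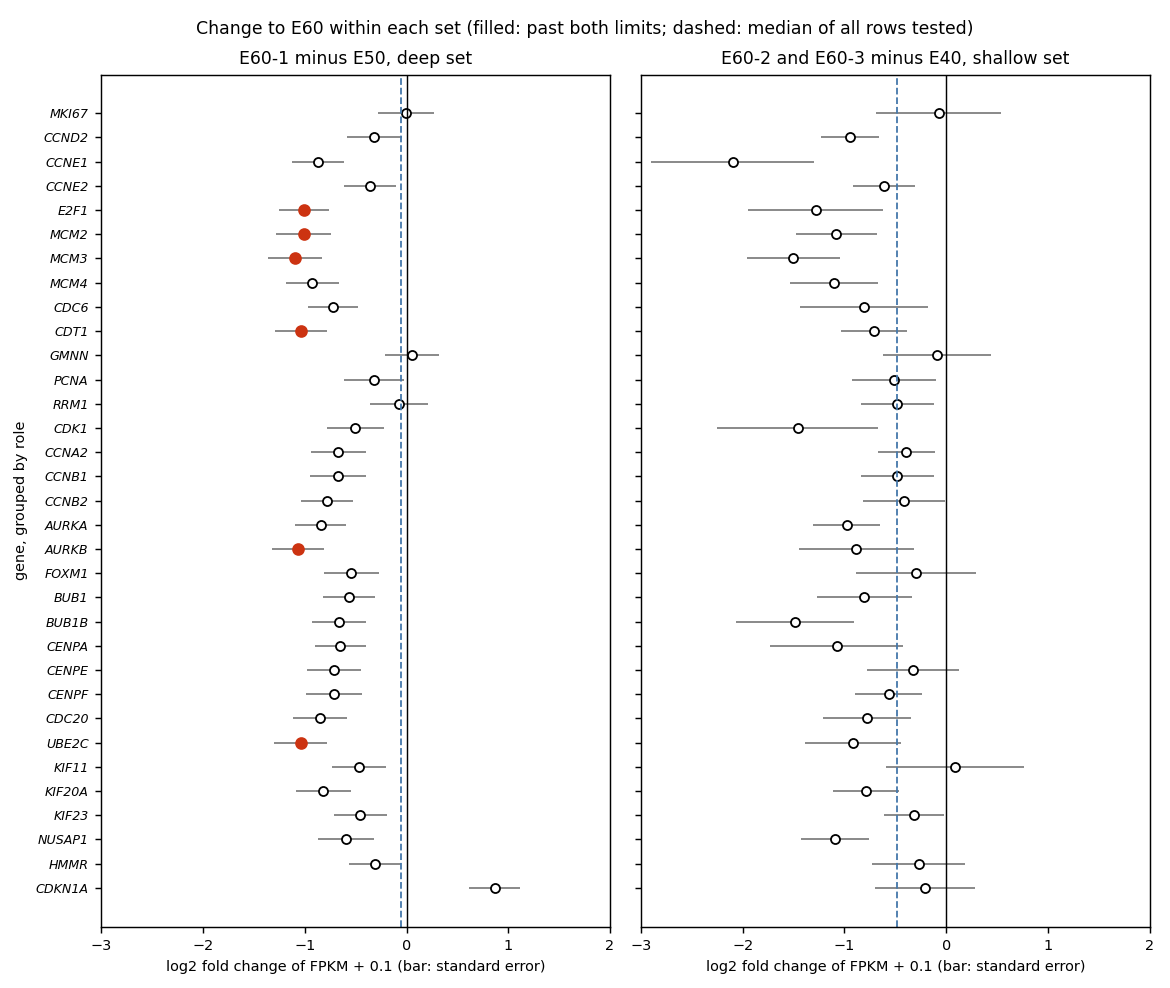
Fitted log2 difference of each of the 33 genes (points) with its standard error (bars), for E60 library 1 against E50 on the left and E60 libraries 2 and 3 against E40 on the right, both on the same axis of log2(FPKM + 0.1); filled points passed both limits and the dashed line is the median of all rows tested. On the left 6 points are filled, the dashed line is at -0.06 and only GMNN and CDKN1A lie above 0; on the right no point is filled, the dashed line is at -0.48 and the bars are longer.

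Within the shallow set, E60 against E40 asked the same of the cap and the late bell stage. None of the 33 genes passed both limits in limma, where 1.3% of all 18426 rows tested did, while 9 (27.3%) had an unadjusted p under 0.05, against 18.5% of all rows. On the recovered fragments, limma's voom called 1 gene, MCM3, and 4.63% of all rows, and a fit of all 9 libraries called 1 gene, CCNE1, and 5.89% of all rows. Log2 differences were below 0 for 32 of the 33 genes, but also for 74.9% of all rows, and the median of the genes was -0.78 beside -0.48 over all rows. E60 libraries 2 and 3 both lay below every E40 library in 14 genes (42.4%), against 32% of all rows. These values moved with 1 library: E60 library 2 lay below every E40 library in 28 genes (84.8%, against 60.6% of all rows) and E60 library 3 in 15 (45.5%, against 39% of all rows), and the median log2 difference from E40 was -1.08 for E60 library 2 and -0.33 for E60 library 3.

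E60 library 2 also had the largest share of its fragments in LOC102158401 (40.6%, against 30.3% in E60 library 3 and 22.3% to 26.4% at E40), and its constitutive genes stood at 50.5% of the E40 mean, beside 50.1% for the cycle genes. When the libraries were scaled by the median ratio over rows above 0 in each of them, the median of the genes was -0.30 beside -0.02 over all rows. This moved all rows alike, and 9 genes went from below to above 0 while the distance of the genes' median from that of all rows was -0.28, as against -0.29 before. Without E60 library 3, which leaves E60 library 2 alone against E40, 8 genes passed both limits (MCM2, MCM3, MCM4, E2F1, BUB1B, CDC20, CDK1 and NUSAP1; 24.2%, against 9.34% of all rows), and without E60 library 2 none did, against 5.19% of all rows. The muscle markers summed to 38.6 to 59.7 FPKM at E40 and to 8.09 and 9.59 FPKM in the E60 libraries, the erythroid markers to 232 to 397 FPKM against 101 and 351 FPKM, and the dental epithelium markers to 3401 to 4877 FPKM against 4732 and 12394 FPKM. The bone markers summed to 45 to 64.9 FPKM against 29.7 and 24.3 FPKM, the mesenchyme and odontoblast markers to 1306 to 1969 FPKM against 1266 and 2556 FPKM, the endothelial markers to 17.9 to 20.9 FPKM against 16.3 and 28.3 FPKM and the leukocyte markers to 1.74 to 2.19 FPKM against 2.29 and 1.93 FPKM. Their part in the values of this set was not tested.

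By role, the median log2 differences in the shallow set were -1.12 for the 4 G1/S genes, -0.94 for the 6 licensing genes, -0.80 for the 7 checkpoint, centromere and anaphase-promoting complex genes, -0.50 for the 2 DNA synthesis genes, -0.48 for the 7 G2/M regulators and -0.32 for the 5 spindle and cytokinesis genes. CCNE1 had the lowest value, from 3, 7 and 7 fragments at E40 (1.22, 2.55 and 2.02 FPKM) and 2 and 1 fragments in E60 libraries 2 and 3 (0.554 and 0.217 FPKM). Both E60 libraries lay below the E40 libraries, but the rate ratio of 0.186 had an exact 95% interval of 0.0350 to 0.644 from counting error alone, and limma gave a log2 difference of -2.10 (SE 0.80, adjusted p = 0.234). MCM3 was better covered, with 96, 139 and 213 fragments at E40 (27.1, 35.0 and 42.7 FPKM) and 39 and 129 in the E60 libraries (7.49 and 19.4 FPKM). Its groups did not overlap, and its log2 difference was -1.50 (SE 0.46, limma adjusted p = 0.16).

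Among the other genes named here by size, E2F1 had 6.18, 6.36 and 9.43 FPKM at E40 and 1.29 and 6.33 FPKM in E60 libraries 2 and 3 (log2 -1.28, limma adjusted p = 0.344). Its E60 library 3 lay between the lowest E40 libraries, so the groups overlapped. CDK1 had 10.6, 12.3 and 17.3 FPKM at E40 and 1.66 and 13.0 FPKM at E60 (log2 -1.46, limma adjusted p = 0.358), again with only E60 library 2 below the range, on 3 fragments. BUB1B had 4.44, 7.14 and 7.56 FPKM at E40 and 1.21 and 3.79 FPKM at E60 without overlap, but from at most 12 fragments in any of these libraries (log2 -1.49, limma adjusted p = 0.238). 

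The levels of MKI67, GMNN and RRM1, which overlapped in the deep set, overlapped here as well. MKI67 had 8.24, 18.4 and 21.9 FPKM at E40 and 7.93 and 25.3 FPKM in E60 libraries 2 and 3, which lay on both sides of the E40 range (log2 -0.07, limma adjusted p = 0.95). GMNN had 6.40, 7.85 and 14.7 FPKM against 5.43 and 13.2 FPKM (log2 -0.09, limma adjusted p = 0.93), and RRM1 59.2, 60.6 and 73.4 FPKM against 32.4 and 64.8 FPKM (log2 -0.48, limma adjusted p = 0.483). KIF11, at 0.891, 1.39 and 1.89 FPKM at E40 and 1.06 and 1.90 FPKM at E60, was the only gene with a log2 difference above 0 (0.09), and it rested on 4 to 16 fragments per library.

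**Figure D3:**
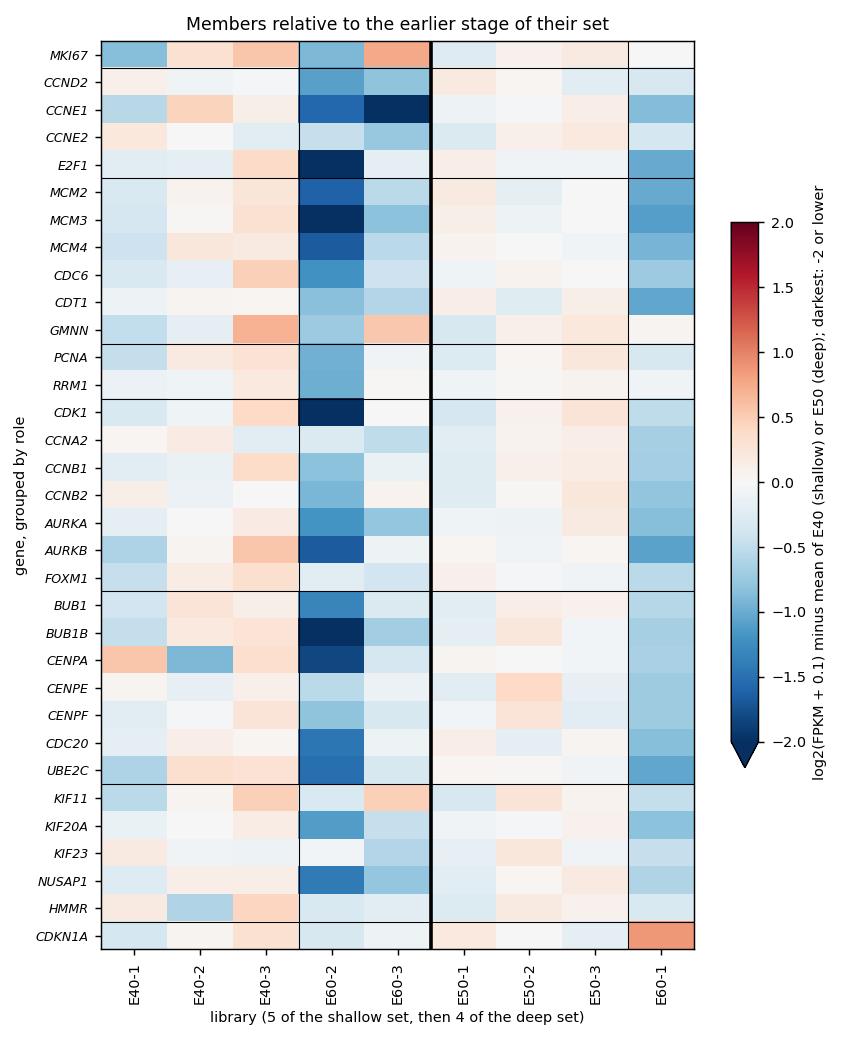
Log2(FPKM + 0.1) of each of the 33 genes in each library minus the mean of E40 (shallow set, first 5 columns) or of E50 (deep set, last 4 columns), with genes grouped by role; blue is lower, red is higher, and the darkest blue stands for -2 or lower. The E60-2 column is blue in nearly every row and E60-3 is paler and mixed, while in the deep set E60-1 is blue in most rows, near white for MKI67, GMNN and RRM1 and red for CDKN1A.

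Set side by side, 14 of the 33 genes (42.4%) were lower at E60 without overlap in both sets, against 14.9% of the 13465 rows tested in both. In the deep set alone the share was 87.9%, against 36.9% of all rows. In the shallow set alone it was 42.4%, against 32% of all rows. The 14 genes below in both sets were thus the same 14 that were below in the shallow set. They were the G1/S cyclins CCND2, CCNE1 and CCNE2, the licensing genes MCM2, MCM3, MCM4, CDC6 and CDT1, the G2/M genes CCNA2 and AURKA, the kinetochore and checkpoint genes BUB1B and CENPF, and KIF20A and NUSAP1 of the spindle. By role this was 3 of 4 G1/S genes and 5 of 6 licensing genes, against 6 of 19 mitotic genes and 0 of the 2 genes of DNA synthesis. MCM2 illustrates the pattern, with 24.4, 31.5 and 35.7 FPKM at E40 and 9.78 and 20.7 FPKM in E60 libraries 2 and 3. CDT1, at 11.2, 12.5 and 12.3 FPKM at E40 and 6.67 and 7.97 FPKM at E60, had the tightest E40 libraries of the licensing genes and 21 to 37 fragments behind each value. CCND2 had 31.7, 28.3 and 29.1 FPKM at E40 and 13.9 and 16.9 FPKM at E60, from 17, 17 and 22 fragments and from 11 and 17. How far these counts differ between roles was not tested.

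From E40 to E50, the step from cap to early bell stage, every E40 library was shallow and every E50 library deep, so stage and set cannot be told apart. In a limma fit of all 9 libraries, 13 of the 33 genes (39.4%) passed both limits, all higher at E50, where 38.6% of all 19618 rows passed in either direction and 16.8% on the higher side. These were GMNN, CENPF, CENPE, KIF20A, PCNA, BUB1B, BUB1, CCNB1, CCNB2, CDC6, HMMR, MKI67 and KIF11. The median log2 difference was 1.37 beside 0.55 over all rows. The count moved with the calls over all rows when a library was left out. It was 0 without E40 library 1 (1.09% of all rows passed), E50 library 2 or E50 library 3 (0.297% of all rows each). It was 2 without E40 library 2 (17.1%), 3 without E50 library 1 (17.6%), 7 without E40 library 3 (27.5%) and 9 without E60 library 3 (34.7%), and it was 24 and 23 without E60 libraries 1 and 2, where 54.6% and 52.4% of all rows passed.

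The same gap between the sets could be seen inside a single stage. E60 library 1 exceeded the mean of E60 libraries 2 and 3 by a median of 1.60 on the log2 scale over the 33 genes, beside 0.875 over all rows. Every deep library lay above every shallow library in 23 of the 33 genes (69.7%), against 37.7% of all rows, and below in none. The differences of the single genes ran in parallel: Pearson's r between E50 minus E40 and E60 library 1 minus E60 libraries 2 and 3 was 0.938 over the 33 genes and 0.900 over all 19618 rows, as a description of values from separate libraries that share set, depth and annotation, with all 33 genes, and 89.5% of all rows, on the same side of 0 in both. KIF11 stood farthest out, with 28.3 to 42.3 FPKM at E50 against 0.891 to 1.89 FPKM at E40 (log2 4.63), and with 25.5 FPKM in E60 library 1 against 1.06 and 1.90 FPKM in the other E60 libraries. CENPE, a mitotic motor of the kinetochore, and PCNA came next in E50 minus E40, with log2 differences of 3.63 and 3.31. CDT1 (-0.76), KIF23 (-0.70) and CCNE2 (-0.52) were lower at E50 than at E40, and also lower in E60 library 1 than in the mean of the other E60 libraries.

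**Figure D4:**
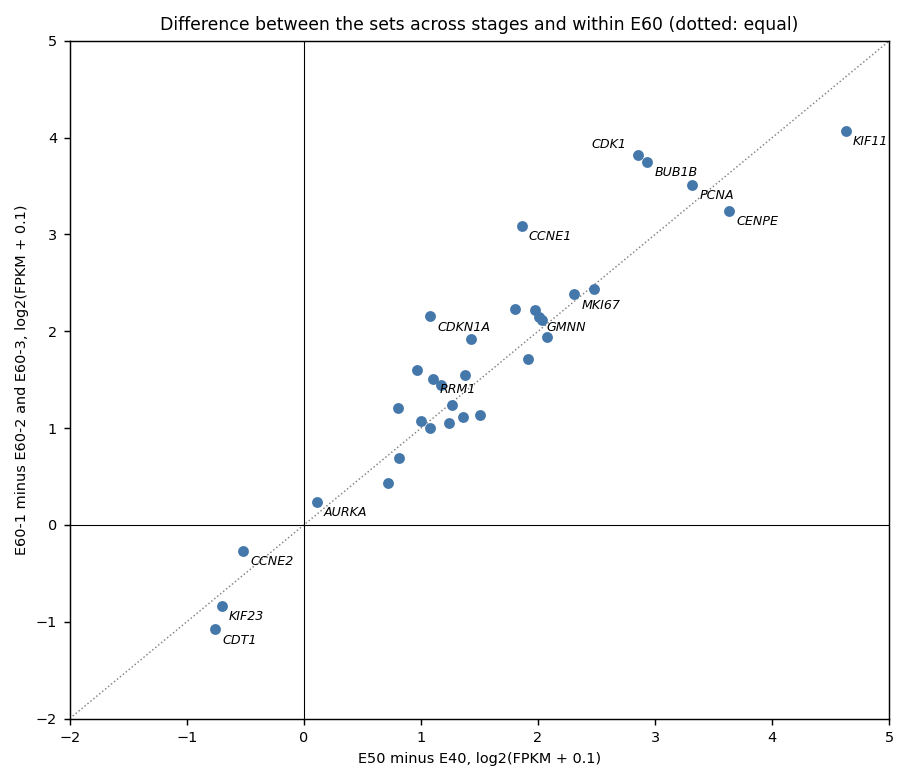
Log2 difference in FPKM + 0.1 between E50 and E40 (horizontal axis) and between E60 library 1 and E60 libraries 2 and 3 (vertical axis), with 1 point for each of the 33 genes and a dotted line where both are equal. The points follow the line from CDT1 at lower left to KIF11 at upper right, so a difference of deep against shallow libraries of the same stage was close to that between E40 and E50 for 31 genes (93.9%, against 70.9% of all rows), which lay within 1 log2 unit of the line.

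Over all 9 libraries, E50 against E60 gave no gene past both limits in limma, where 0.0714% of all rows passed. With voom 0 genes and 61 of 19618 rows passed. An unadjusted p under 0.05 in limma was found for 27 genes (81.8%) and for 5923 of the 19618 rows. The median log2 difference was -1.77 beside -0.64 over all rows, with deep libraries alone at E50 and both kinds at E60, and 30 genes passed without E60 library 1, when the contrast became one of deep against shallow libraries and 59.1% of all rows passed. E40 against E60 likewise gave no gene, where 1.8% of all rows passed, with a median of -0.25 beside -0.22. With voom 0 genes and 273 of 19618 rows passed. An unadjusted p under 0.05 in limma was found for 3 genes (9.09%) and for 3520 of the 19618 rows. Without E60 library 1 the comparison of E40 with E60 gave 1 gene, where 6.06% of all rows passed.

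Beyond these genes, 145 other cell cycle genes were listed from textbook knowledge, of which 112 were above 0 and 111 tested. They covered replication, repair at the fork, mitosis and cytokinesis, and also CDK inhibitors and other brakes on the cycle. The counts below therefore pool genes of opposite roles. In the deep set 7 of the 111 (6.31%) passed both limits, close to the 5.74% of all rows, with 6 of them lower at E60. Log2 differences were below 0 in 99, with a median of -0.53 beside -0.06 over all rows. UHRF1, which maintains DNA methylation behind the fork, was the lowest, with 54.7, 40.4 and 43.7 FPKM at E50 and 17.5 FPKM in E60 library 1 (log2 -1.39, SE 0.26, limma adjusted p = 7.81e-05). INCENP, the scaffold that holds AURKB at the centromere, and POLD1, the catalytic subunit of DNA polymerase delta, followed with -1.30 and -1.25, also without overlap. The 1 gene past both limits on the higher side was RB1, the retinoblastoma protein that restrains E2F. It had 8.91, 13.8 and 11.8 FPKM at E50 and 24.6 FPKM in E60 library 1 (log2 1.11, SE 0.25, limma adjusted p = 0.00122). In the shallow set none of the 111 passed in limma. An unadjusted p under 0.05 was found for 25 of them (22.5%, against 18.5% of all rows), and voom called 5 (4.5%, against 4.63% of all rows). Their median there was -0.71 beside -0.48 over all rows, and RB1 had 15.3, 13.1 and 11.5 FPKM at E40 against 7.40 and 6.28 FPKM at E60, the opposite order to that in the deep set.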

How the data were processed

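RNA from 9 Dm3 germ libraries was analysed. The authors aligned reads with TopHat (build Sscrofa10.2 per the labels) and deposited FPKM per gene and library; the counter and gene annotation are not given in the sources used here. Every FPKM value above 0 was a whole number of fragments times the worth of 1 fragment (relative tolerance 1e-07, all 28963 rows above 0), which gave each library's depth; 1 fragment on 1 kb was worth 0.568 to 1.07 FPKM in shallow and 0.0600 to 0.0696 FPKM in deep libraries. Intervals cover counting error only.

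Rows that reached 1 FPKM in 2 or more fitted libraries entered limma 3.58.1 (R 4.3.3, mean-variance trend) as log2(FPKM + 0.1), separately in each set, with Benjamini-Hochberg adjustment over all rows tested; fold changes on this scale understate those of low genes. A fit of all 9 libraries served the stage comparisons. The code was tested on simulated data, where it recovered most changed genes in the deep set, with some unchanged genes among its calls, and few in the shallow set. Genes given in every library were CDKN1A, MKI67, the highest member of each role and the 5 largest rises and falls per set. The members, lists and sets were chosen with earlier results of these data known. Alternatives covered pseudocount, filter, scaling, voom, libraries in the fit, leaving out libraries and a replicate block; FPKM without the 9 rows holding at least 1% of a library's fragments was added after seeing the data.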

Additional observations from a re-analysis of the deposited data

How the results depend on the processing

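Of 123 counts and medians under an alternative, 92 stayed near the reported value (a count within 1.5 times, a median within the spread between libraries). Of the rest, 17 counts were lower, 12 counts higher and 2 medians moved. Many of the 92 were counts of 0 that stayed 0. Under most alternatives the count of 6 in the deep set was lower, and that of 13 from E40 to E50 left these bounds. Of 432 log2 differences of single genes, 368 kept their sign and their side of the limits, whatever their size, 34 no longer passed the limits, 8 came to pass them and 22 changed sign. Size could move far: without E60 library 2, CDK1 in the shallow set went from -1.46 to -0.012. Genes past both limits in the deep set, 6 as reported, numbered 3 with a pseudocount of 1 (549 of all 14499 rows) and 0 without the filter (0 rows). They numbered 1 (MCM3) with median-ratio scaling, 3.03% of the genes, where a larger share of all rows passed (780 of 14499). The count was 0 in 1 fit of all 9 libraries with or without the replicate block (5 and 21 of 19618 rows). It was 1 to 6 when E50 libraries were left out (637 to 1008 rows). In the shallow set, 0 as reported, voom gave 1, a fit of all 9 libraries 1 (CCNE1) and leaving out a library 0 to 8. From E40 to E50, 13 as reported, fitting only these stages gave 25 (75.8%), where 11001 of 18802 rows passed. Leaving out a library gave 0 to 24 genes there, where 58 to 10650 rows passed. E50 to E60 gave 0 to 30 when a library was left out (30 where 11529 of 19493 rows passed). E40 to E60 gave 0 to 1 in the same way (1 where 1181 of 19493 rows passed). Of the other cell cycle genes, voom called 5 and a fit of all 9 libraries 4 in the shallow set, where leaving out a library gave 0 to 15; in the deep set the filter's removal and the fit of all 9 libraries, with or without the replicate block, gave 0, and leaving out a library gave 5 to 11. The median of the shallow set, -0.78, was -0.30 with median-ratio scaling and -0.33 to -1.08 when a library was left out. The causes were not tested.

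Same-numbered libraries did not deviate together (r -0.515 to 0.109, 1 of 9 pairs over 0.1, against -0.378 to 0.423 for different numbers), so the numbers were not taken to pair the samples. With the replicate block the count from E40 to E50 was 7 (21.2%), where 5104 of 19618 rows passed. In the deep set it was 0, where 5 of 19618 rows passed.

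Signs turned only in values near 0 and in the shallow set. There MKI67 was 0.40 with median-ratio scaling, 0.24 in FPKM without the rows of at least 1%, 0.075 and 0.20 without E40 libraries 2 and 3 and -0.90 to 0.76 over the libraries left out. GMNN was 0.38, 0.22, 0.26 without E40 library 3 and -0.73 to 0.54 over the libraries left out; CDKN1A was 0.25 and 0.091, and CCNA2 0.085 with median-ratio scaling. RRM1 was -0.98 to 0.017 over the libraries left out, and KIF11 -0.18 with the replicate block, -0.18 without E40 library 1 and -0.31 to 0.48 over the libraries left out. In the deep set MKI67 was 0.066 with median-ratio scaling, 0.55 with the replicate block and -0.13 to 0.085 over the E50 libraries left out, GMNN -0.11 to 0.16 over them and RRM1 0.032 with the replicate block. Depth limits the shallow set most: BUB1B, CCNE1, CDC6, CDKN1A and FOXM1 had at most 12 fragments in each of its libraries.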

Other observations

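Ratios of genes inside a library do not depend on the scaling between libraries. Chosen after the values were seen, the ratio of MKI67 to MCM3 in FPKM was 0.962, 1.40 and 1.41 in the E50 libraries and 2.66 in E60 library 1, and in the shallow set 0.304, 0.525 and 0.514 at E40 and 1.06 and 1.30 in E60 libraries 2 and 3. In both sets the E60 libraries lay above all libraries of the earlier stage. This direction followed from the choice of genes. MKI67 differed little in the deep and the shallow set (log2 -0.0029 and -0.07), and MCM3 was lower at E60 in both (-1.10 and -1.50). The ratio of GMNN to CDT1, inhibitor to loader of the MCM helicase, was 3.83, 6.58 and 5.61 at E50 and 11.2 in E60 library 1, above all E50 libraries. In the shallow set it was 0.571, 0.628 and 1.20 at E40 and 0.815 and 1.66 at E60, which overlapped. GMNN and CDT1 were chosen in the same way, so both ratios restate the values above and give no separate support.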
